A study of Mus musculus with 5 samples.

Results

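Cell cycle genes and the p53-p21 axis were followed in CD45- cells sorted from B16-OVA tumors. The set has 7 listed genes: the mitotic genes Birc5, Cdk1, Ttk and Pbk, the cyclin gene Ccnd3, the cell cycle inhibitor gene Cdkn1a, and Trp53. Members were chosen by gene name, and 5 of the 7 had a row among the 750 endogenous genes of the counts table. Ttk and Pbk had none under these names or under their RefSeq transcripts and were not analysed here, so that the mitotic genes are 2, Birc5 and Cdk1. All 5 measured members passed the filter on low counts, as did 401 of the 750 genes.

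Tumors of B16.OVA, a single mouse melanoma line that expresses ovalbumin, grew in C57BL/6 mice of the genotype Prdm1fl/flFoxP3YFP-Cre (KO, n = 2 samples) or FoxP3YFP-Cre (WT, n = 3 samples). Both genotypes carry the YFP-Cre fusion at Foxp3, and in KO mice it deletes Prdm1, which encodes Blimp1, in Foxp3+ regulatory T (Treg) cells. Treg cells carry CD45 and are left out by the sort, so the deletion is in cells other than those measured. All mice were injected with tumor cells under the skin and, intraperitoneally, with NP-OVA, first in CFA (day 0) and then in IFA (day 7). Tumors were taken at no more than 1.5 cm3 for sorting of live CD45- cells, and the labels give no age. By the methods, mice of the study were young, some weeks old, and of both sexes. Their RNA, 100 ng per sample, was counted with the NanoString nCounter Mouse PanCancer Immune Profiling panel. The comparison sets tumors of mice whose Treg cells lack Blimp1 against tumors of mice whose Treg cells have it.

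p53, encoded by Trp53, is held low by protein turnover and accumulates after DNA damage and other stresses, so that its activity is set mostly after transcription. One of its best-known target genes is Cdkn1a, whose product p21 inhibits cyclin-dependent kinases and halts the cycle. Cdk1 drives entry into mitosis, Birc5 encodes survivin, a subunit of the chromosomal passenger complex that also inhibits apoptosis, and Ccnd3 encodes cyclin D3, which activates Cdk4 and Cdk6 in G1. When p21 is active, mitotic genes are commonly repressed through the DREAM complex, which binds the CHR element of their promoters.

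The 2 promoter stretches shown here hold letter strings typical of p53 and CHR elements, in the inhibitor gene and in Cdk1, the mitotic kinase gene of the set that was measured. The strings were chosen after the promoter sequences had been read. The stretches are the 120 bases before an annotated start, read from the RefSeq promoter table of build GRCm38.p6, written 5′ to 3′ on the strand of the gene.
Cdkn1a, chr17:29090859-29090978, plus strand: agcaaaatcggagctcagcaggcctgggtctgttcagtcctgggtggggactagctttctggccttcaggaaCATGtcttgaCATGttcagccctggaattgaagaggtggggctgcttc
Cdk1, chr10:69352913-69353032, minus strand: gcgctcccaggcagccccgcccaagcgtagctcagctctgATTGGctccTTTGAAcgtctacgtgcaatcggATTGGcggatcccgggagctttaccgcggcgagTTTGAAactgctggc

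In Cdkn1a the capitals mark both CATG cores of the spaced pattern CATGNNNNNNCATG, which p53 response elements often contain and which reads the same on both strands. The pattern began 48 bases before the upstream start, which lies 2790 bases from the downstream Cdkn1a start, and 0.71% of 32817 mouse promoter windows of 300 bases held it. In Cdk1 the capitals mark the CHR letters, TTTGAA, and the CCAAT box, which lies on the other strand and is printed there as its reverse complement. The CHR letters occurred 2 times in the Cdk1 window, 71 and 15 bases before the start, and on either strand in 17.9% of all windows. The CCAAT box occurred on either strand in 37.4% of windows, and 3 times in that of Cdk1, 2 of them in the stretch printed. These matches and those of the CHR letters do not overlap. The windows of Birc5 and of the downstream Cdkn1a start held none of these letter strings, the p53 pattern included. Those of Trp53 and of 1 of the 2 Ccnd3 starts held 1 CCAAT box each, and that of Ttk, whose transcript was not analysed here, held the CHR letters 1 time and the CCAAT box 2 times. A match describes the letters of a window, and binding was not measured.

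Endogenous counts summed to 450207 and 461822 in KO and to 369515 to 423472 in WT, and background, the mean plus 2 SD of the 8 negative controls of a sample, lay between 13.1 and 17.7 counts. Normalized counts are raw counts divided by a relative factor from the 20 housekeeping probes, 1.14 and 1.01 in KO and 0.935 to 0.971 in WT. Prdm1 had 6 and 4 raw counts in KO and 3 to 10 in WT, below background throughout, and Ptprc, which encodes CD45, at most 4 in any sample. No count of Prdm1 in this sort checks the deletion, which is in Treg cells. The study's legends count the groups as 2 KO and 3 WT mice, while the labels name samples only. The p-values measure the spread between these samples. In bulk RNA, fewer cells of a type and less RNA per cell cannot be told apart.

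Among the 5 measured members, Cdkn1a was the one with an unadjusted p under 0.05 by edgeR, and its mean was higher in KO. Its p was over 0.05 with the methods' t-test and with limma, on counts as scaled, with background subtracted or on the deposited signal. The means of Birc5 and Ccnd3 differed by less than the SD of WT, Cdk1 had a higher mean in KO, and Trp53 a lower one, each without passing the test. Across all tested genes, 6.23% (25 of 401, 11 higher and 14 lower in KO) had an unadjusted p under 0.05 by edgeR's quasi-likelihood test, so 1 of 5 members is a count too small to set apart from that background. With scaling to the positive controls the split was 24 higher against 4 lower. That scaling also moved the midpoint of all log2 fold changes to 0.074, where housekeeping scaling put it at -0.069. At an adjusted p under 0.05 edgeR called 0% of genes (0 of 401), limma called 0 and DESeq2 called 3, none of them a member.

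**Figure D1:**
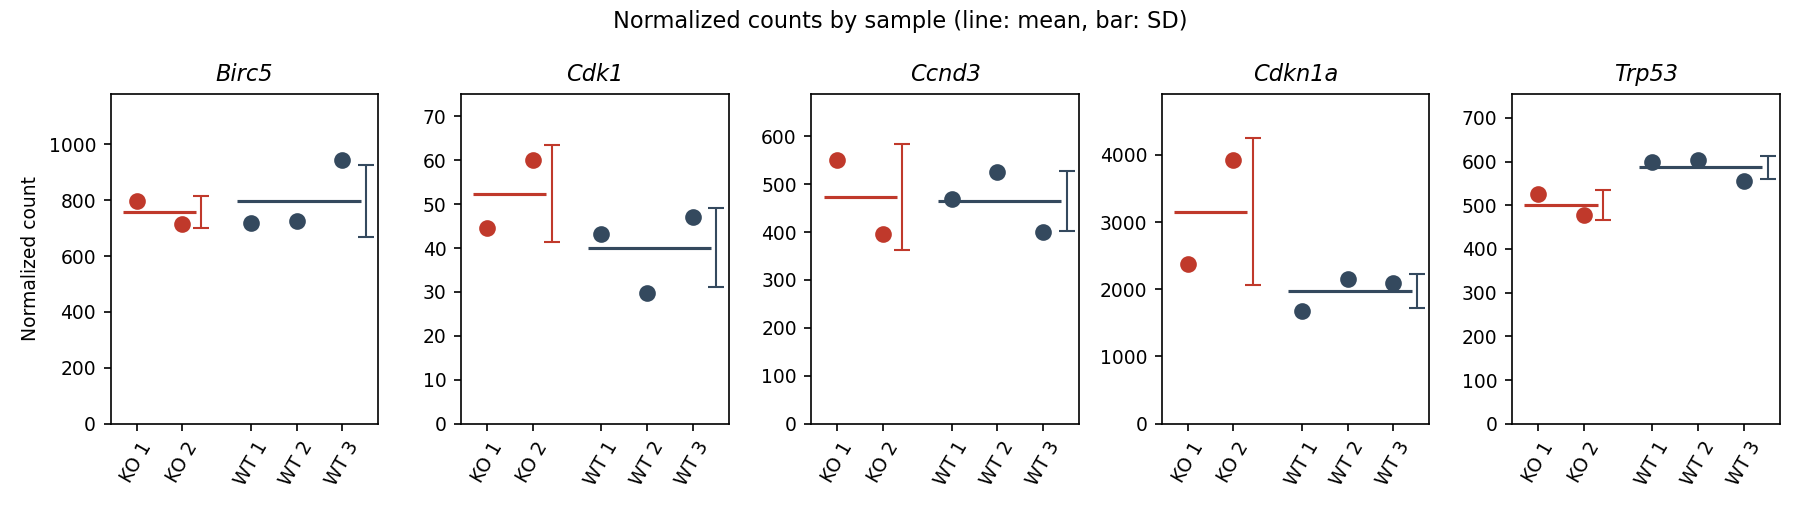
Normalized counts (y axis, from 0, each gene on its own scale) of the 5 measured members in KO 1 and 2 (red) and WT 1 to 3 (dark blue), with the group mean as a line and the SD as a bar. KO 2 stands highest for Cdkn1a at 3931 and lowest for Trp53 at 477.4, while Birc5, Cdk1 and Ccnd3 overlap between the groups.

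Cdkn1a had 2718 and 3985 raw counts in KO 1 and 2, against 1628, 2012 and 1960 in WT 1, 2 and 3. After scaling these were 2378 and 3931 normalized counts in KO, against 1676, 2146 and 2097 in WT. Both KO samples lay above every WT sample, by a small margin for KO 1 and a wide one for KO 2, which had 1.65 times the level of KO 1. The groups averaged 3155 ± 1098 in KO (SD, n = 2) and 1973 ± 258 in WT (SD, n = 3), a 1.60-fold difference of means. The fitted log2 fold change was 0.68 (SE 0.25, 95% CI 0.04 to 1.31, edgeR adjusted p = 0.71), and by p Cdkn1a ranked 20 of 401 genes.

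The size of this difference rested on KO 2. Without KO 2 the log2 fold change of Cdkn1a was 0.27 (edgeR adjusted p = 0.996), and without KO 1 it was 0.99 (edgeR adjusted p = 0.745). It was 0.57 without WT 1, 0.74 without WT 2 and 0.72 without WT 3. The unadjusted p stayed under 0.05 without KO 1 and exceeded it without any of the other 4 samples. Both KO samples stayed above all WT samples under each of the 5 scalings tried, a pattern that 8.98% of tested genes (36 of 401) showed with housekeeping scaling.

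Trp53 had a lower mean in KO, by a far smaller margin. It had 526 and 477.4 normalized counts in KO 1 and 2, against 599.3, 604.7 and 556 in WT. Both KO samples lay below every WT sample, as in 14.7% of tested genes (59 of 401). The means were 502 ± 34.3 in KO (SD, n = 2) and 587 ± 26.5 in WT (SD, n = 3). On the log2 scale the difference was -0.23 (SE 0.11, edgeR adjusted p = 0.744), with a 95% CI from -0.52 to 0.066. The gap depended on scaling. With TMM, DESeq2 size factors, positive controls or the endogenous total the groups overlapped, and the log2 fold change with positive controls was -0.076. Trp53 was also the steadiest member in WT, where its coefficient of variation was 4.52%, against 13.1% to 22.6% for the other 4.

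The mitotic genes Birc5 and Cdk1 had differences of opposite sign, and neither passed the test. Birc5 had 798.9 and 716 normalized counts in KO 1 and 2, against 719, 726 and 946 in WT 1, 2 and 3, so that 4 of the 5 samples lay close together and WT 3 stood above them. Its means were 758 ± 58.6 in KO (SD, n = 2) and 797 ± 129 in WT (SD, n = 3). On the log2 scale Birc5 differed by -0.073 (SE 0.17, edgeR adjusted p = 0.945). This value had a 95% CI from -0.50 to 0.36, and its sign turned to 0.068 without WT 3 and to 0.078 with scaling to the positive controls.

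Cdk1 was the weakest member, at 2.14 to 3.44 times background. Its raw counts were 51 and 61 in KO 1 and 2, against 42, 28 and 44 in WT 1, 2 and 3. The exact 95% Poisson interval was 46.7 to 78.4 around the 61 counts of KO 2 and 18.6 to 40.5 around the 28 counts of WT 2, and these extremes did not overlap. The interval of KO 1, 38 to 67.1, overlapped those of all WT samples. Normalized counts were 44.6 and 60.2 in KO, against 43.2, 29.9 and 47.1 in WT, with means of 52.4 ± 11 in KO (SD, n = 2) and 40.1 ± 9.04 in WT (SD, n = 3). KO 1 lay between WT 1 and WT 3. The log2 fold change was 0.38 (SE 0.29, edgeR adjusted p = 0.824) with a 95% CI from -0.36 to 1.13. Without KO 2 it was 0.16. Under TMM, DESeq2 size factors and positive controls both KO samples lay above all WT samples, and under the endogenous total the groups overlapped. The share of tested genes with both KO samples above was not counted under TMM, DESeq2 size factors or positive controls. Those scalings also raised the midpoint over genes, from -0.069 with housekeeping scaling to -0.020, -0.019 and 0.074 respectively. The order is therefore not set apart from that shift for Cdk1.

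Ccnd3 differed more within a genotype than between them. It had 551 and 396 normalized counts in KO 1 and 2, against 468.5, 525 and 400.1 in WT 1, 2 and 3. The KO samples enclosed all 3 WT samples. The means were 473 ± 110.1 in KO (SD, n = 2) and 464 ± 62.4 in WT (SD, n = 3). The difference of 0.03 on the log2 scale (SE 0.20, edgeR adjusted p = 0.978) had a 95% CI from -0.49 to 0.55. Leaving out KO 1 gave -0.23 and leaving out KO 2 gave 0.25.

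**Figure D2:**
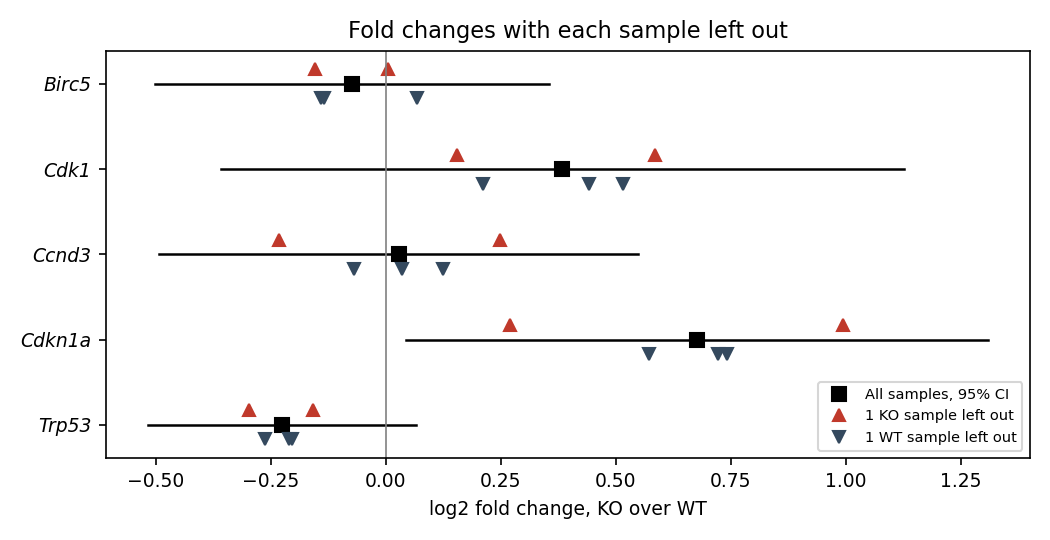
Log2 fold change of KO over WT (x axis) for each measured member: squares give the fit to all 5 samples with its 95% confidence interval, and triangles the fits with 1 KO (red) or 1 WT (dark blue) sample left out. Cdkn1a is the member whose interval, 0.04 to 1.31, lies above 0, and its triangles run between 0.27 and 0.99.

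Ratios of raw counts within a sample do not depend on the scaling factor, and they were used to set the mitotic genes against the p53-p21 pair. Probes differ in efficiency, so each ratio is compared between samples only. The geometric mean of Birc5 and Cdk1 over that of Cdkn1a and Trp53 was 0.169 and 0.152 in KO 1 and 2, against 0.176, 0.129 and 0.195 in WT 1, 2 and 3. Both KO samples lay inside the WT range, and the mean log2 ratio differed by -0.04 (KO minus WT), well within the pooled SD of 0.26. With Ccnd3 added to the numerator the ratio was 0.241 and 0.188 in KO, against 0.244, 0.197 and 0.242 in WT, a log2 difference of -0.09.

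In all, 12 ratios were computed, and those of single genes were added after the counts had been seen. Cdkn1a and Trp53, whose means differed in opposite directions, are averaged in the denominator above. Set against Cdkn1a alone, the mitotic pair differed by -0.47 on the log2 scale (KO minus WT), and set against Trp53 alone by 0.39, with overlapping groups both times. The ratio of Cdkn1a to Trp53 itself was 4.52 and 8.23 in KO 1 and 2, against 2.8, 3.55 and 3.77 in WT 1, 2 and 3. It was higher in both KO samples than in any WT sample, but 26% of the other tested genes (104 of 400) showed the same order when divided by Trp53. The ratio of Cdkn1a to Birc5 was 2.98 and 5.49 in KO, against 2.33, 2.95 and 2.22 in WT, so that KO 1 barely exceeded WT 2. Of the other genes, 5.5% (22 of 400) had both KO samples above all WT samples when divided by Birc5.

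**Figure D3:**
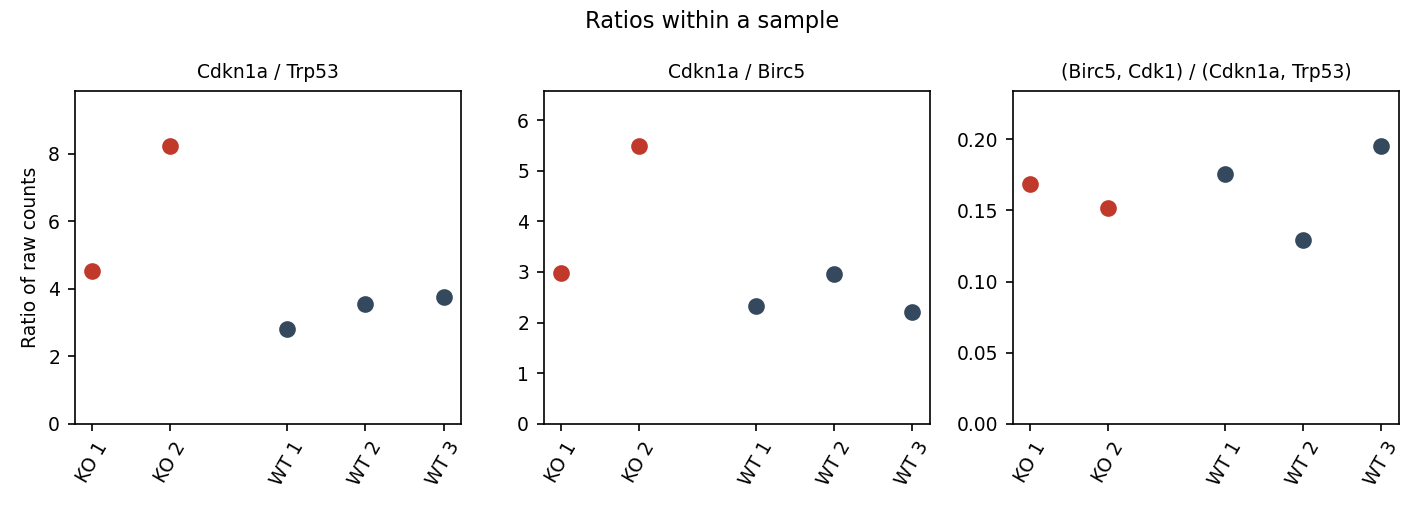
Ratios of raw counts within each sample (y axis, from 0, no unit) for Cdkn1a over Trp53, Cdkn1a over Birc5, and the geometric mean of Birc5 and Cdk1 over that of Cdkn1a and Trp53. KO 2 stands apart in the first 2 plots, at 8.23 and 5.49, and neither KO sample leaves the WT range in the last.

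Other genes of the pathway were read from lists of its parts, on a panel where 243 of the 401 tested genes had a lower mean in KO and 158 a higher one. On the panel, 2 of 27 further cell cycle genes were found, and both had a lower mean in KO without passing the test. Myc, a transcription factor that drives growth and represses Cdkn1a, had 3817 and 2981 normalized counts in KO, against 4184, 4168 and 3870 in WT. Its difference on the log2 scale was -0.26 (SE 0.14, edgeR adjusted p = 0.744). Both KO samples lay below the WT samples, KO 1 narrowly, an order found in 14.7% of tested genes (59 of 401). Anp32b, a histone chaperone, had a log2 fold change of -0.02. Mki67, which encodes the proliferation marker Ki-67, had no row in the table and was not analysed here.

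Of 15 listed p53 target genes other than Cdkn1a, 5 were on the panel and tested, with 1 higher and 4 lower mean in KO, the direction of most tested genes being lower as well, and 0 at an unadjusted p under 0.05. The median of the 5 was -0.14 on the log2 scale, against -0.069 over all tested genes. Bax, a pore-forming killer protein, had 612 ± 28.9 normalized counts in KO (SD, n = 2) and 676 ± 21.6 in WT (SD, n = 3). Bid, which links caspase 8 to mitochondria, had 259 ± 10.2 in KO and 296 ± 25.6 in WT. Thbs1, which encodes the matrix protein thrombospondin 1, had 28.9 and 16.8 in KO, against 37.1, 57.6 and 26.7 in WT, near background. Both KO samples lay below all WT samples for Bax and Bid, an order found in 14.7% of tested genes, and the groups overlapped for Thbs1. For Bid the order rested on a near tie, KO 1 at 266.0 against WT 1 at 266.7. The one with a higher mean in KO was the death receptor gene Fas, at 17.3 ± 3.43 in KO and 14.5 ± 6.87 in WT, near background.

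Kinases and cofactors that act on p53 (Mapk8, Mapk14, Atm, Crebbp and Ep300, 5 of 11 listed) had a higher mean in KO in 3 cases and a lower one in 2, with a median of 0.03 on the log2 scale, and 0 passed at an unadjusted p under 0.05. The kinase gene Mapk8 had the smallest p of these, with 373 ± 46.7 normalized counts in KO (SD, n = 2) and 302 ± 43.3 in WT (SD, n = 3). Among 13 tested genes of other inputs to Cdkn1a, such as the TGF-β pathway, 3 had higher and 10 lower means (median -0.09), beside the 243 of 401 lower over all genes. Smad3, a signal carrier of TGF-β, was the one with an unadjusted p under 0.05, beside 6.23% (25 of 401) over all tested genes. It had 411 and 395 normalized counts in KO, against 505, 563 and 469.7 in WT. Both KO samples lay below all WT samples, as in 14.7% of tested genes (59 of 401). The fitted difference of Smad3 was -0.35 on the log2 scale (SE 0.13, edgeR adjusted p = 0.71). Of 8 tested genes that carry mitogen signals to cyclin D, 4 were higher and 4 lower (median -0.06), and 0 had an unadjusted p under 0.05.

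Of 6 tested genes for caspases and BCL2 family proteins, 3 had a higher mean in KO and 3 a lower one (median -0.02). Bcl2l1, which encodes the survival protein BCL-XL, had the smallest p of them. It was also the gene closest to Cdkn1a across samples, with a root mean square difference of 0.10 on the log2 scale after centring over the 5 samples, where the median gene differed by 0.47. Bcl2l1 had 627 and 891 normalized counts in KO 1 and 2, against 395, 593 and 516 in WT 1, 2 and 3. Like Cdkn1a it was highest in KO 2 and lowest in WT 1, and its log2 fold change was 0.60 (SE 0.24, edgeR adjusted p = 0.71). Next came Rora, a nuclear receptor gene, with 235 and 355 in KO and 153, 174 and 224 in WT (difference 0.13), and C1s1, a complement protease gene, with 49 and 78.9 in KO and 31.9, 60.8 and 48.1 in WT (difference 0.20). Nearest to the mean of Birc5 and Cdk1 were Raet1 (0.08), Mapk8 (0.09) and Atg10 (0.10), with a median over genes of 0.32.

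**Figure D4:**
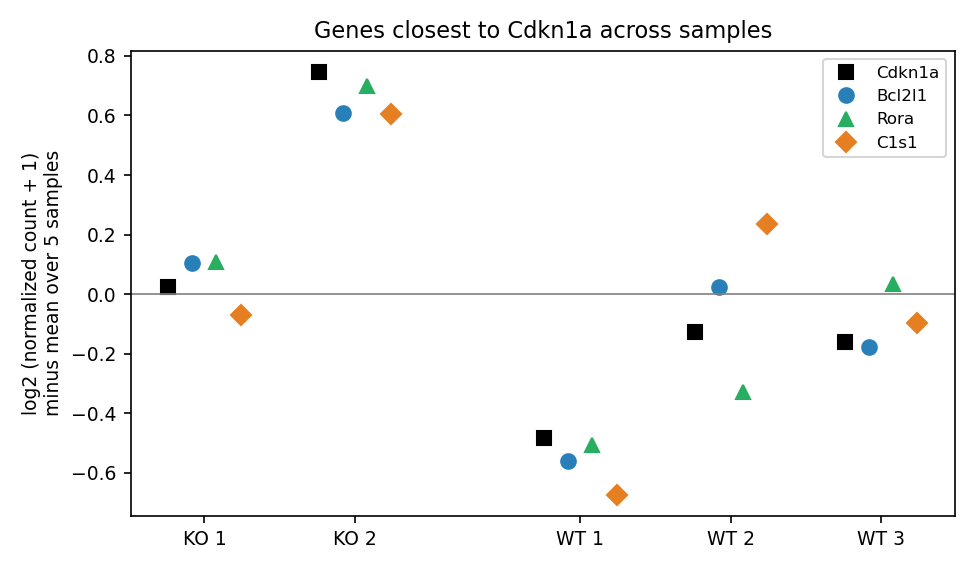
Log2 of the normalized count plus 1, minus its mean over the 5 samples (y axis), for Cdkn1a and the 3 genes closest to it, in KO 1 and 2 and WT 1 to 3. All 4 genes are highest in KO 2 and lowest in WT 1.

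Markers of other cell types were checked beside these results. Macrophage markers summed to 302 and 310 normalized counts in KO, against 203, 280 and 167 in WT, so that both KO samples lay above all WT samples, as for Cdkn1a. The sum came mostly from Cd68, with 243 and 246 in KO and 141, 210 and 128 in WT. Lyz2, the other tested marker, overlapped between the groups, with 36.8 and 38.5 in KO and 28.8, 46.9 and 11.8 in WT. Csf1r, Itgam and Cd14 were not tested because they did not exceed background in 2 samples, and Ptprc was at or near 0. Csf1r, near background, went the other way, with 9.63 and 9.86 in KO against 15.4, 13.9 and 13.9 in WT. Fibroblast markers, 5 of 5 tested, summed to 1440 and 1386 in KO, against 1008, 1589 and 552 in WT, and overlapped. That sum came mostly from Fn1, with 1274 and 1294 in KO and 871, 1358 and 454 in WT. Of the 5, 3 had a higher mean in KO and 2, Col1a1 and Col3a1, a lower one. T cell markers summed to 48.1 and 38.5 in KO and 28.9 to 53.3 in WT, with 1 of 6 tested. B cell markers summed to 18.4 and 23.7 in KO and 16.5 to 26.7 in WT, with 0 of 4 tested. Endothelial markers summed to 17.5 and 41.4 in KO and 31.9 to 51.4 in WT, with 1 of 5 tested. Of 7 melanocyte markers, Mcam and S100b were on the panel, and they summed to 4408 and 4456 in KO and 3562 to 3903 in WT. Mcam differed by 0.58 on the log2 scale (SE 0.11, edgeR adjusted p = 0.487), with both KO samples above all WT samples. S100b differed by -0.13, with both KO samples below. Of all tested genes, 8.98% had both KO samples above all WT samples and 14.7% had both below. Mlana, Pmel, Tyr, Dct and Mitf had no row in the table. Melanocyte markers were thus read from 2 genes only, which differed in opposite directions and do not settle the identity of these cells. The part of these markers in the level of Cdkn1a was not tested.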

How the data were processed

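Raw nCounter counts for 784 probes were deposited by the authors with nothing subtracted or scaled. The deposited normalized signal, made in nSolver, is the raw count times 1 factor per sample with a floor of 15, and served as an alternative. Both tables give a value for each of the 5 samples, with groups taken from sample titles. Endogenous probes (750) were kept where above background in at least 2 samples. Counts were scaled by the geometric mean of 20 housekeeping probes and fitted with edgeR 4.0.16 (estimateDisp, glmQLFit, glmQLFTest) under R 4.3.3. The model held genotype alone, and p-values were adjusted by Benjamini-Hochberg over all 401 tested genes. SEs are approximate, the absolute log2 fold change over the root of F, and 95% intervals use the t distribution with the fit's total degrees of freedom. limma 3.58.1 and DESeq2 1.42.0 were alternatives, and limma values are log2 of the normalized count plus 1. The fit was also run on counts simulated with dispersions estimated from these same samples, and no result given here rests on that run.

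The members, context lists and tests were chosen with earlier results of these data known. Named were all members, up to 3 tested genes per list by smallest p, and the 3 genes nearest by root mean square difference to Cdkn1a and to the mitotic mean, and others beside a count were chosen after their values were seen. RefSeq promoter windows (build GRCm38.p6) were matched by symbol for 6 of 7 members. Intervals of counts cover counting error only. Alternatives were other scalings, filters, background subtraction, other tests, the deposited signal, a replicate block and each sample left out. The mitotic mean was planned over Birc5, Cdk1, Ttk and Pbk and was taken over the first 2, since the others had no row. Ratios of single genes and the overlap of groups under each scaling were added after values were seen. Coordinates are those of the printed promoter stretches only, since the counts table names no build.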

Additional observations from a re-analysis of the deposited data

How the results depend on the processing

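Over 18 alternatives, Cdkn1a kept a positive log2 fold change (0.27 to 0.99) and Trp53 a negative one (-0.30 to -0.076), and no member passed an adjusted p of 0.05 in any. Cdk1 stayed positive in 17 (0.16 to 0.59) and was removed by a mean raw count of at least 50. DESeq2 gave Cdk1 no adjusted p, so it was not assessed at that cutoff there. Cdkn1a had an unadjusted p under 0.05 in 10 of 18 and over it with the methods' t-test, limma on each kind of value, and 4 of the 5 fits with 1 sample left out. Birc5 was 0.078 with positive controls, and -0.15 to 0.068 with 1 sample left out. Ccnd3 ranged from -0.23 to 0.25 and the mitotic minus p53-p21 difference from -0.21 to 0.085 with 1 sample left out. The 25 genes with an unadjusted p under 0.05 became 39 with no filter (more genes tested) and 10 to 50 with 1 sample left out, 50 without WT 1, 16 without WT 3, 16 without KO 1 and 10 without KO 2. The causes were not tested. With 1 KO sample left, its spread is assumed to be that of WT. With the replicate block 16 genes had such a p, Birc5 was 0.066, Ccnd3 -0.086 and the mitotic difference 0.085. In the block fit WT 3 has no KO sample of its number and adds nothing to the genotype difference. The block is therefore close to leaving out WT 3, which gave the same mitotic difference of 0.085. Deviations of same-numbered samples correlated at 0.29 and 0.00025, and with 2 KO samples that mirror each other these values do not settle a pairing. Scaling without the housekeeping probe G6pdx was chosen after seeing the data. Low counts limit Cdk1, and n = 2 in KO limits every member.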

Other observations

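Ccnd3 and Atm, the kinase gene upstream of p53, ordered the samples almost alike, a pair chosen after its values were seen. Atm had 432 and 326 normalized counts in KO 1 and 2, against 418, 454 and 319.9 in WT 1, 2 and 3. Both genes were low in KO 2 and WT 3 and high in KO 1 and WT 2, so each varied more within a genotype than between the genotype means. Low values in KO 2 and WT 3 were not particular to this pair. Itga6 had 827 and 693 in KO 1 and 2, against 890, 755 and 569 in WT 1, 2 and 3. Igf1r had 366 and 307 in KO, against 342, 332 and 235 in WT. The share of all tested genes with such an order was not counted, and a link between Ccnd3 and Atm was not tested. The log2 fold change of Atm was -0.07 (SE 0.22, edgeR adjusted p = 0.965).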
